A study of Mus musculus with 4 samples.

Results

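The brakes on the cell cycle described here are 10 mouse genes, namely 6 inhibitors of cyclin-dependent kinases (Cdkn1a, Cdkn1b, Cdkn2a, Cdkn2b, Cdkn2c and Cdkn2d), the 3 retinoblastoma-type pocket protein genes (Rb1, Rbl1 and Rbl2) and the stress gene Gadd45g. They were taken by symbol, and all 10 were found among the 22552 symbols of the deposited tables. The rule itself uses no measured value, but the genes were chosen with earlier results of these data known. Their RNA was measured in cultured spermatogonial stem cells, which renew themselves and found sperm production, from males of the strain DBA/C57 F1 aged 5 to 7 days. The cells came from the single clones iKO-SC-1 and iKO-SC-2, in which doxycycline induces the knockout of the microRNA miR-202. After a night on laminin they had either 10 µg/ml doxycycline for 2 days or the same 2 days without the drug. That gave 2 doxycycline libraries and 2 untreated libraries, all labelled wild type in genotype, and no library of cells without the inducible system was used here. The effects of the drug itself and of the loss of miR-202 therefore cannot be told apart. The series' title names cell cycle regulators among what miR-202 restrains, which is the question these genes bear on.

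CDK inhibitors form a pair of families. Proteins of the CIP/KIP family, p21 (Cdkn1a) and p27 (Cdkn1b), bind complexes of a cyclin with its kinase, and CDK2 complexes are their main targets. INK4 proteins, p16 (Cdkn2a), p15 (Cdkn2b), p18 (Cdkn2c) and p19 (Cdkn2d), bind CDK4 and CDK6 and keep cyclin D away. Active CDKs phosphorylate the pocket proteins RB, p107 (Rbl1) and p130 (Rbl2), which otherwise hold E2F factors in check. p107 and p130 do so within the DREAM complex, which also silences genes of mitosis. In the mouse testis, loss of RB is known to disturb the upkeep of the stem cells.

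The 2 arms of miR-202 are shown first because their seeds, bases 2 to 8 in capitals, are the part that pairs with target transcripts (RefSeq, GRCm38.p6, chromosome 7, minus strand, bases 139957695 to 139957716 for the 3p arm and 139957732 to 139957752 for the 5p arm).
mmu-miR-202-3p: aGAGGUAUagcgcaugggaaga
mmu-miR-202-5p: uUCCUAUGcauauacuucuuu
mmu-let-7a-5p: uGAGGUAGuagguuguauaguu
The 3p arm shares its bases 2 to 7 with let-7a, which is printed beside it for that reason. Matches to either seed were sought in the longest annotated 3' UTR of each gene (GENCODE M21), as the complement of bases 2 to 8 (ATACCTC for 3p, CATAGGA for 5p) or of bases 2 to 7 followed by A (TACCTCA and ATAGGAA). Of the 10 genes, only Rb1 held a match, and it held 1 for each arm, each of the full 8 bases that both definitions make together. The sites are printed with the matched bases in capitals, 5′ to 3′ along the transcript.
Rb1 site for miR-202-3p: acacagatttcATACCTCAgaccctctaag
Rb1 site for miR-202-5p: agtgacagaatCATAGGAAttttcagagat
The first begins at base 645 and the second at base 1544 of a UTR of 1709 bases (GRCm38, chromosome 14, minus strand, 73196559 to 73196566 and 73195660 to 73195667). Of 10522 tested genes with an annotated 3' UTR, whose median length was 1146 bases, 13.9% held a 3p site and 15.8% a 5p site. A site of either definition for both arms was held by 430 genes (4.09%), and an 8-base site for both arms by 19 genes (0.181%). The UTR of Cdkn1b, the longest of the 10 at 3439 bases, held none, and neither did those of Cdkn1a (1334 bases) and Cdkn2a (264 bases). A match is a run of letters, and whether either Rb1 site is used in these cells was not tested.

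Promoters were searched because Cdkn1a, a known p53 target, differed far more between conditions than the other 9 genes. The 250 bases before each annotated start (RefSeq, GRCm38.p6) were at hand for 12 starts of 9 of the genes. The p53 response element was sought as a pair of its 10-base repeats without a spacer, with the cytosine and guanine of both cores fixed and at most 1 other base off. It is symmetrical, so 1 pass covers both strands. Of 32851 promoters, 19 (0.0578%) held it, and the upstream of the 2 Cdkn1a starts was one of them. That stretch is printed with the 20 bases of the element in capitals, which carry 1 mismatch and lie 51 to 32 bases before the start (chr17:29090729-29090978, plus strand).
Cdkn1a upstream start: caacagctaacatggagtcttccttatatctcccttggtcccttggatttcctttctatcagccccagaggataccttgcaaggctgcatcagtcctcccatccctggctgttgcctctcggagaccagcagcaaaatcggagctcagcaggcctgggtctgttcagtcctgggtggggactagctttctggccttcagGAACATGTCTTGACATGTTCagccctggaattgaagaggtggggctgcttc
Among the other genes with the element, 3 were expressed highly enough to be tested, namely the p53-induced cyclin G gene Ccng1, the ribosomal-type p53 target Rps27l and the folate enzyme gene Mthfd1. The log2 change with doxycycline was 1.47 for Ccng1, 0.41 for Rps27l and 0.10 for Mthfd1.
An E2F site was sought as TTCGCGC or TTGGCGC or TTCCCGC on either strand. It stood before 6.69% of all starts and before 3 of the 12, those of Rbl1, Cdkn2c and the upstream Cdkn2a transcript. Rbl1 is shown because E2F factors are known to drive p107, with its site in capitals (chr2:157204535-157204784, minus strand).
Rbl1 start: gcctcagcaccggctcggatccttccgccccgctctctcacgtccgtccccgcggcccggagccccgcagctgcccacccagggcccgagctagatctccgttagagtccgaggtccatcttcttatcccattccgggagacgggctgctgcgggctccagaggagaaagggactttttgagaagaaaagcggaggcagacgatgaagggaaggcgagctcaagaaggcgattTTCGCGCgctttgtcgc
The CHR element of mitotic genes, TTTGAA on either strand, stood before 16% of all starts and before 2 of the 12 (Cdkn2b and Rbl2). The GC box, GGGCGG on either strand, stood before 32.7% of all starts and before 6 of the 12. None of these letters shows that a factor binds there.

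The cells carried the RNA of germ cells. Dazl and Ddx4, RNA-binding proteins of the germline, lay between 284.3 and 299.8 FPKM and between 113.8 and 120.6 FPKM in the 4 libraries, and the stem cell factors Zbtb16 and Gfra1 between 87.3 and 104.5 FPKM. FPKM scales fragments by transcript length and by the depth of the library, so levels can be compared between genes. Of 10 markers of fibroblast feeders, 9 were measured above a mean of 1 FPKM, and their list summed to 157.8 and 146.9 FPKM under doxycycline, against 157.4 and 135.7 FPKM without it. Sertoli cell markers summed to at most 10.8 FPKM in a library, with Fshr at 0 in all. Leydig and peritubular markers summed to at most 13.7 FPKM, with Cyp17a1 and Hsd3b1 at 0, and macrophage and blood markers to at most 8.11 FPKM, with Hbb-b1 at 0. The 14 spermatogonial markers summed to 994.3 and 957.6 FPKM in doxycycline libraries, against 982.7 and 986.7 FPKM in untreated ones. Unadjusted, 3 of these had a limma p under 0.05 without the block, against 15.1% of all tested genes. After adjustment 0 of the 14 passed without the block, and 2 fell with it, Nanos3 and Utf1. Their part in the results was not tested. Mir202 was listed at 0 FPKM in all 4 libraries, like all 605 microRNA symbols, so the induced loss could not be checked here. In whole-culture RNA, fewer cells of a type and less RNA per cell cannot be told apart.

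Levels of the 10 genes spanned a wide range and kept nearly the same order in every library. Cdkn2a was the highest, with a mean of 75.0 FPKM over the 4 libraries (range 72.9 to 77.5), above 93.8% of the tested genes. Cdkn1a followed at 33.1 FPKM (17.2 to 56.0) and Gadd45g at 26.9 FPKM (23.1 to 33.1), and these neighbours overlapped: Cdkn1a was above Gadd45g in both doxycycline libraries and below it in both untreated libraries. Its lowest value, 17.2 FPKM, also lay within the range of Rb1 (16.1 to 19.5 FPKM). Next came Rb1 at 17.4, Cdkn2b at 8.76, Cdkn2d at 5.79, Rbl1 at 4.23 and Cdkn1b at 1.90 FPKM, each separated from its neighbours in all 4 libraries. Cdkn2c (0.868 FPKM, range 0.719 to 0.993) and Rbl2 (0.704 FPKM, range 0.641 to 0.772) closed the order with overlapping ranges. These last 2 stayed under the mean of 1 FPKM required for the test, which left 8 genes in it.

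**Figure D1:**
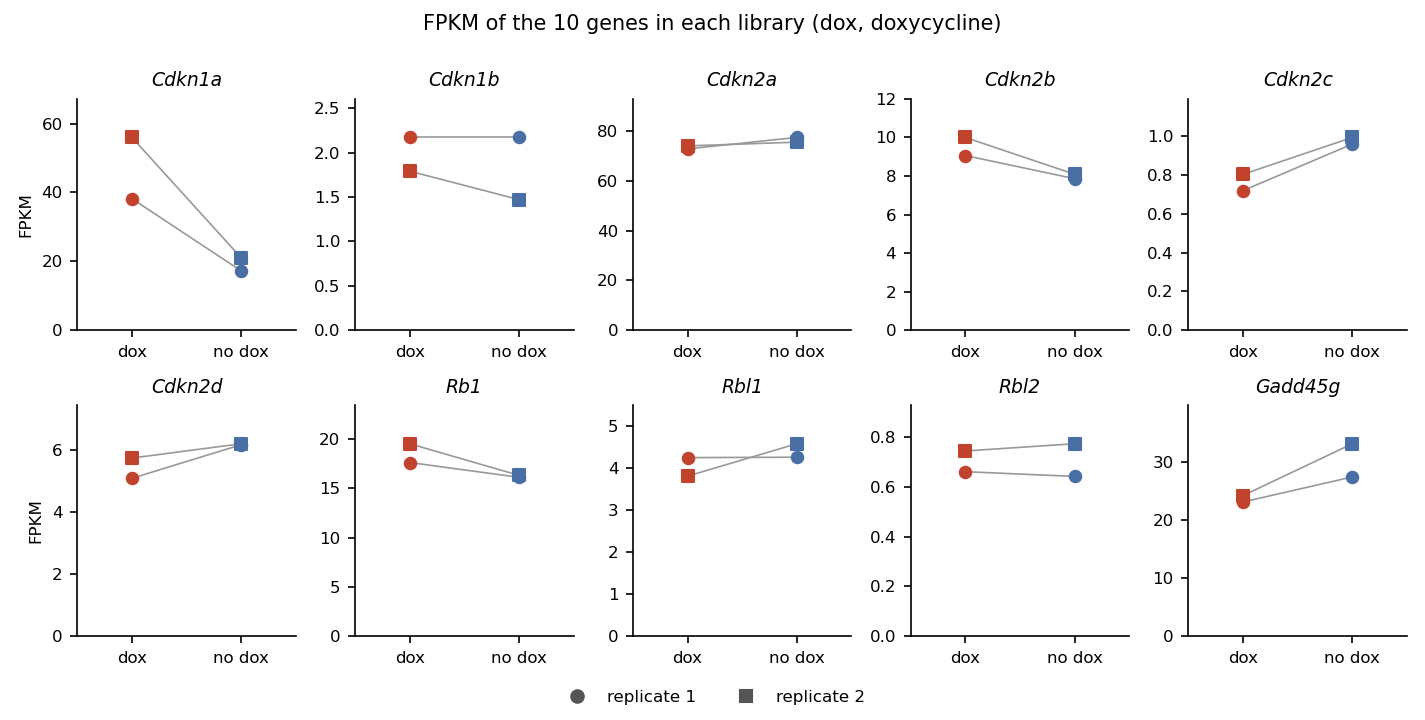
FPKM of each of the 10 genes (y axes from 0, each with its own scale), with the 2 doxycycline libraries in red on the left and the 2 untreated libraries in blue on the right of each panel; circles are replicate 1, squares replicate 2, and grey lines join libraries with the same number. Cdkn1a stands at 38.2 and 56.0 FPKM under doxycycline, against 17.2 and 21 FPKM without it, while Cdkn2a stays between 72.9 and 77.5 FPKM in all 4 libraries.

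No member passed limma's test over all 11924 tested genes at an adjusted p under 0.05, in which 33 genes were called (0.277%; 0.218% higher, 0.0587% lower). Unadjusted, 4 of the 8 had a p under 0.05 without a block, against 15.1% of all tested genes. With the replicate block described next 5 of the 8 did, against 2674 of all 11924 tested genes. The design text gives each condition the same 2 clones, and a block on replicate number let 441 genes pass (3.70%; 2.73% higher, 0.973% lower). With that block 2 of the 8 passed: Cdkn1a rose and Gadd45g fell. Single libraries moved the count of 33. Leaving out doxycycline replicate 1 gave 60 genes and leaving out doxycycline replicate 2 gave 5, while untreated replicates 1 and 2 gave 5 and 2 when left out. The doxycycline and untreated values did not overlap for 7 of the 8 genes, 3 higher and 4 lower, but the same held for 48.4% of all tested genes (23.5% higher, 24.9% lower). Over all 10 genes, which include the 2 too low to be tested, 4 were higher and 5 lower in both pairs, against 32.8% and 34.0% of tested genes. These counts take in near ties in pair 1, for Cdkn1b (2.17 against 2.17 FPKM) and Rbl1 (4.25 against 4.26 FPKM). The median log2 change of the 8 was 0.01, against -0.0022 over all tested genes. Relative depth, in units of doxycycline replicate 1, was lower in the doxycycline libraries (1.21 in replicate 2) than in the untreated libraries (1.33 and 1.54), and its part in the differences was not tested. An exact permutation test on 2 against 2 libraries cannot give a p below 0.333.

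**Figure D2:**
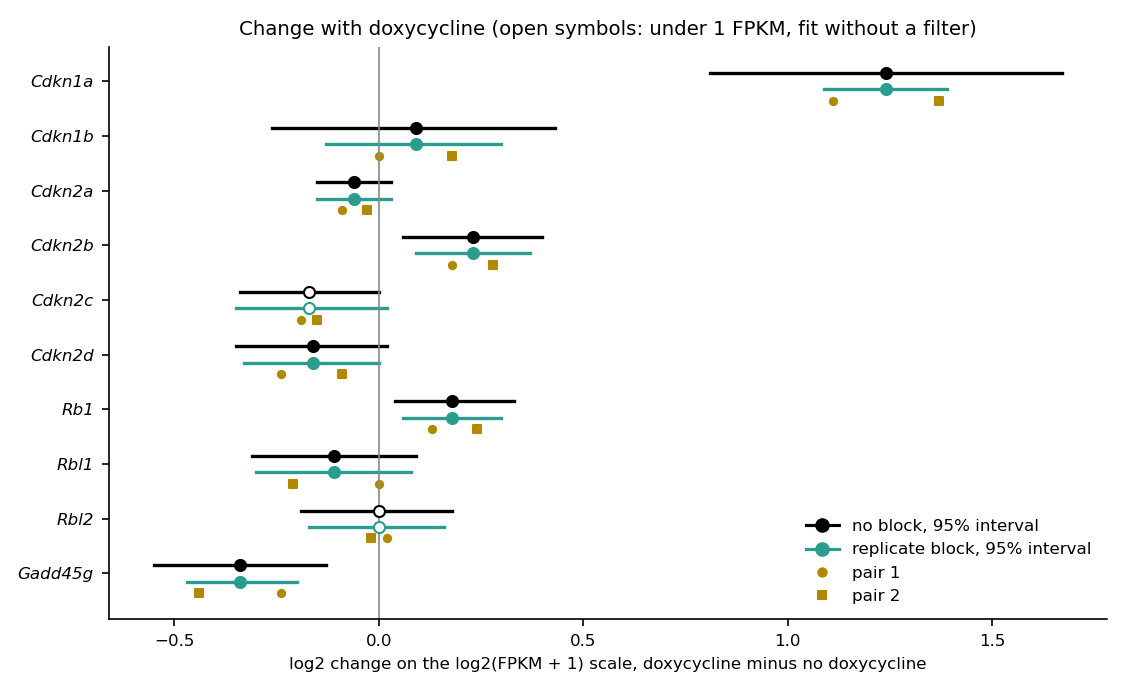
Log2 change with doxycycline (x axis, log2(FPKM + 1) scale) of each gene (y axis), with 95% confidence intervals from limma without a block (black) and with the replicate number as a block (green), and below them the change within pair 1 (circle) and pair 2 (square). Cdkn1a, at 1.24, is set apart from the other 9 genes, which lie between -0.34 for Gadd45g and 0.23 for Cdkn2b; open symbols mark Cdkn2c and Rbl2, taken from the fit without an expression filter.

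Cdkn1a encodes p21, the inhibitor through which p53 halts the cycle (chromosome 17, 29227931 to 29237667, mm9). It stood at 38.2 and 56.0 FPKM in the doxycycline libraries, against 17.2 and 21 FPKM in the untreated libraries. The lower doxycycline value was thus well above the higher untreated one. The means were 47.1 ± 12.5 FPKM with doxycycline and 19.1 ± 2.69 FPKM without (SD, n = 2 each), a ratio of 2.46. Within same-numbered libraries the ratio was 2.22 in pair 1 and 2.66 in pair 2. The log2 change was 1.24 ± 0.18 (SE; 95% interval 0.81 to 1.67), with a limma adjusted p of 0.0636, and of 0.000289 with the block. Without a block it passed when doxycycline replicate 1 was left out (log2 change 1.51, adjusted p = 0.0116) and when only genes of at least 5 FPKM were tested (adjusted p = 0.0425). Leaving out doxycycline replicate 2 (adjusted p = 0.0797), untreated replicate 1 (0.29) or untreated replicate 2 (0.174) kept it short of the threshold, as did every other unblocked alternative, with adjusted p up to 0.31 where no expression filter was used. Of 6421 tested genes that averaged 10 FPKM or more, 4 had a larger positive change.

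Cdkn1b encodes p27, which restrains CDK2 in quiescent cells and is destroyed through the ubiquitin ligase subunit Skp2 (chromosome 6, 134870419 to 134875543, mm9). It was at 2.17 and 1.79 FPKM under doxycycline, against 2.17 and 1.47 FPKM without it. The groups overlapped, and both replicate 1 libraries were above both replicate 2 libraries. Its log2 change was 0.09 ± 0.14 (SE; 95% interval -0.26 to 0.43) and its limma adjusted p 0.813, and the sign turned when doxycycline replicate 1 (-0.01) or untreated replicate 2 (-0.09) was left out. The ratio of Cdkn1a to Cdkn1b FPKM was 17.6 and 31.3 with doxycycline and 7.92 and 14.3 without.

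None of the 3 tested INK4 genes passed limma's test with or without the block, though Cdkn2b had an unadjusted p under 0.05 in both (0.0157, and 0.00567 with the block) and Cdkn2d with the block (0.0484). Cdkn2a sits on chromosome 4 (88920377 to 88940523, mm9) and encodes both p16 and, from another first exon and reading frame, p19ARF, the protector of p53. The gene-level value covers both, so their shares are unknown here. Its FPKM was 72.9 and 74.1 with doxycycline and 77.5 and 75.6 without, lower in both doxycycline libraries but by a few FPKM. The log2 change was -0.06 ± 0.04 (SE; 95% interval -0.15 to 0.03, limma adjusted p = 0.505). Cdkn2b lies beside it (chromosome 4, 88952198 to 88956941, mm9), encodes p15, and was at 9.06 and 10.0 FPKM under doxycycline, against 7.86 and 8.09 FPKM without it. All its doxycycline values were above the untreated ones, by a log2 change of 0.23 ± 0.07 (SE; 95% interval 0.06 to 0.40), yet it did not pass (limma adjusted p = 0.228). The 2 neighbouring genes therefore differed in sign in both pairs, with log2 changes of -0.09 and -0.03 for Cdkn2a and of 0.18 and 0.28 for Cdkn2b. Their FPKM ratio, Cdkn2a over Cdkn2b, was 8.05 and 7.38 with doxycycline and 9.87 and 9.34 without.

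Cdkn2c and Cdkn2d, the p18 and p19 genes whose joint loss is known to impair sperm formation in mice, were both lower in both pairs. Cdkn2c (chromosome 4, 109333481 to 109337977, mm9) was at 0.719 and 0.803 FPKM under doxycycline, against 0.959 and 0.993 FPKM without it. These groups did not overlap, but the deposited bounds of the first value span 0.334 to 1.10 FPKM and take in both untreated values. In the fit without an expression filter its log2 change was -0.17 ± 0.06 (SE, limma adjusted p = 0.421). That fit called 0.00552% of 18129 genes, and 0.0883% with the block, and neither Cdkn2c nor Rbl2 was among them. Cdkn2d summed to 5.08 and 5.73 FPKM under doxycycline, against 6.16 and 6.19 FPKM without it, a log2 change of -0.16 ± 0.08 (SE; 95% interval -0.35 to 0.02, limma adjusted p = 0.384). That symbol has 2 lines, which may share reads and are uncertain as separate genes. The line at chromosome 9, 21092908 to 21095653 (mm9), gave 3.4 and 3.92 FPKM under doxycycline, against 4.55 and 4.41 FPKM without it. The line at chromosome 9, 123836860 to 123839607 (mm9), gave 1.68 and 1.82 FPKM under doxycycline, against 1.61 and 1.78 FPKM without it. Only the first was lower with doxycycline, and with the higher line alone the log2 change was -0.24 (adjusted p = 0.286).

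Per transcript length, the 6 inhibitors described here summed to 128.1 and 148.4 FPKM in the doxycycline libraries and to 111.8 and 113.4 FPKM in the untreated libraries. Cdkn1a and Cdkn1b together summed to 40.4 and 57.7 FPKM in the doxycycline libraries and to 19.4 and 22.5 FPKM in the untreated libraries. The 4 INK4 genes summed to 87.7 and 90.6 FPKM under doxycycline, against 92.5 and 90.9 FPKM without it. Cdkn1a made up 29.8% and 37.7% of the sum with doxycycline, against 15.4% and 18.5% without. Cdkn2a was the largest part of these 6 in all 4 libraries, at 56.9% and 49.9% with doxycycline and 69.3% and 66.7% without. Its value includes p19ARF RNA in an unknown share, so the sums and percentages that contain Cdkn2a count that RNA too. The third CIP/KIP gene, Cdkn1c, is not in these sums. With it the CIP/KIP genes summed to 118.2 and 136.4 FPKM in the doxycycline libraries and to 96.7 and 96.1 FPKM in the untreated libraries, and Cdkn1a made up 18.6% and 24.6% of all 7 inhibitors with doxycycline, against 9.1% and 11.2% without.

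**Figure D3:**
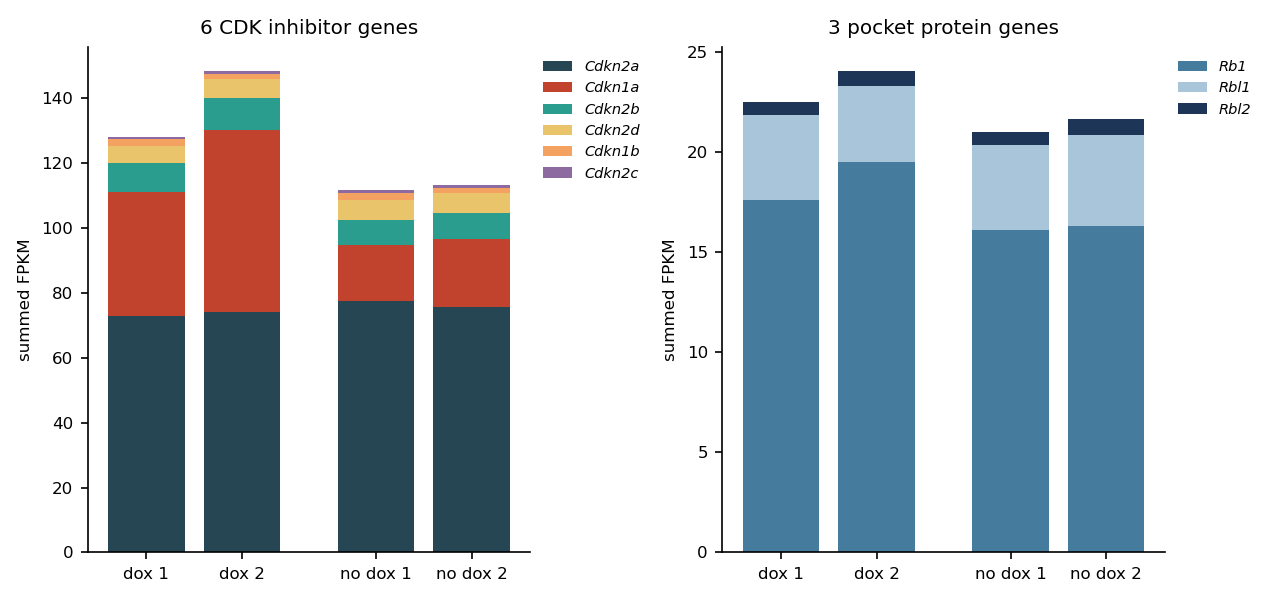
Summed FPKM (y axes from 0) of the 6 CDK inhibitor genes (left) and the 3 pocket protein genes (right) in each library, with the doxycycline libraries left of the untreated ones and each colour 1 gene. Cdkn1a fills 29.8% and 37.7% of the inhibitor bars with doxycycline and 15.4% and 18.5% without, while Rb1 fills 75.3% to 81.1% of every pocket protein bar. The Cdkn2a part of each bar includes p19ARF RNA in an unknown share.

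Among the pocket proteins Rb1 carried most of the RNA and was the one that stood higher with doxycycline. Rb1, the retinoblastoma tumour suppressor gene (chromosome 14, 73595309 to 73725598, mm9), was at 17.6 and 19.5 FPKM under doxycycline, against 16.1 and 16.3 FPKM without it. Both doxycycline values were above both untreated values, by a ratio of 1.10 in pair 1 and 1.19 in pair 2. The log2 change was 0.18 ± 0.06 (SE; 95% interval 0.04 to 0.33), short of the threshold at a limma adjusted p of 0.256. This is the gene with the printed sites for both miR-202 arms. The 19 tested genes with an 8-base site for both arms had a median log2 change of 0.00, the same to 2 decimals as the tested genes with a 3' UTR.

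Rbl1, which encodes p107, the pocket protein of cycling cells (chromosome 2, 156971630 to 157030270, mm9), was at 4.25 and 3.81 FPKM under doxycycline, against 4.26 and 4.58 FPKM without it. Replicate 1 was level between conditions, and the lower value came from doxycycline replicate 2. Its log2 change was -0.11 ± 0.08 (SE; 95% interval -0.31 to 0.09, limma adjusted p = 0.578). Rbl2, which encodes p130, the pocket protein of resting cells (chromosome 8, 93593993 to 93647743, mm9), was at 0.660 and 0.743 FPKM under doxycycline, against 0.641 and 0.772 FPKM without it. Here the groups overlapped and the pairs differed in sign. The Rb1 level was 26.7 and 26.3 times that of Rbl2 with doxycycline and 25.1 and 21.2 times without.

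Gadd45g, a small nuclear protein that binds p21, PCNA and CDK1 and activates stress kinases (chromosome 13, 51942044 to 51943843, mm9), was lower with doxycycline, where Cdkn1a was higher. It was at 23.1 and 24.2 FPKM under doxycycline, against 27.4 and 33.1 FPKM without it, and the groups did not overlap. The means were 23.7 ± 0.746 FPKM with doxycycline and 30.2 ± 4.0 FPKM without (SD, n = 2 each), and the ratio was 0.844 in pair 1 and 0.732 in pair 2. Its log2 change was -0.34 ± 0.09 (SE; 95% interval -0.55 to -0.13), which missed the threshold without the block (limma adjusted p = 0.197) and passed with it (0.0244). With the block but no expression filter it did not pass (adjusted p = 0.165). Untreated replicate 2 set much of its size: the log2 change was -0.20 without that library and -0.47 without untreated replicate 1. The related Gadd45a and Gadd45b, named after their values were seen, had log2 changes of 0.14 and 0.01, neither past the threshold (limma adjusted p = 0.377 for Gadd45a and 0.981 for Gadd45b).

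Profiles over the 4 libraries were compared by the Euclidean distance between log2(FPKM + 1) values centred on each gene's own mean, for the 3 members that varied most. Nearest to Cdkn1a were the polo-like kinase gene Plk2 (distance 0.07), the microtubule-binding p53 target Psrc1 (0.09), Got1l1 (0.15) and the mTORC1 inhibitor Ddit4 (0.16). No other tested gene lay within 0.2. Since Cdkn1a ranked 11 among tested genes by size of log2 change, few genes could lie near it. Plk2 was at 20.0 and 27.7 FPKM under doxycycline, against 8.71 and 10.3 FPKM without it. Psrc1 was at 8.41 and 11.6 FPKM under doxycycline, against 3.29 and 4.06 FPKM without it. All 4 neighbours share with Cdkn1a a higher value in replicate 2 of each condition. For Gadd45g the nearest were Fam111a, the germ cell RNA-binding protein gene Nanos3, Upk2 and Ddc (0.02 to 0.05), and 144 genes lay within 0.2. For Cdkn1b they were Tmc3, Cbln1, Kif26b and Tbc1d2 (0.02 to 0.04), with 509 genes within 0.2. Distances so small among so many genes single out no gene for these last 2 members.

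Around the 10 genes, 11 lists of pathway genes held 139 distinct tested genes. By limma over all genes tested, 11 of them rose and 0 fell, against 0.218% and 0.0587% of all tested genes. Under the block, 41 rose and 1 fell, against 2.73% and 0.973% of all tested genes. Single libraries moved the count of 11: leaving out doxycycline replicate 1 gave 20 listed genes, leaving out doxycycline replicate 2 gave 1, and leaving out either untreated library gave 0. The lists were drawn up with results of these data known, so their counts describe these libraries and are no independent evidence of direction. All 11 calls lay in 3 lists, those of other p53 targets, of mitotic genes of the DREAM type and of p53 with its regulators. Some lists below are given with their counts at an unadjusted p under 0.05. Over all tested genes that held for 15.1% without the block and for 2674 of 11924 with it.

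p53 targets other than the 10 genes had the highest median of the lists. Of 17 tested, 6 rose without the block and 16 with it, against 0.218% and 2.73% of all tested genes. In both pairs 16 were higher, against 32.8% of all tested genes. The median log2 change of the 17 was 0.72, against -0.0022 over all tested genes. Ccng1, a p53-induced cyclin, was at 52.2 and 69.5 FPKM under doxycycline, against 19.0 and 23.6 FPKM without it, and rose by 1.47 ± 0.15 on the log2 scale (SE, adjusted p = 0.0291). Like Cdkn1a, it was highest in doxycycline replicate 2. Bbc3, which encodes the cell death protein PUMA, was at 8.55 and 9.65 FPKM under doxycycline, against 4.10 and 4.09 FPKM without it, and rose by 0.98 ± 0.08 (SE, adjusted p = 0.0288). Gtse1 rose by 0.84 and Trp53inp1 by 0.73 (limma adjusted p = 0.0291 and 0.0334). The 1 gene of the list that was lower in both pairs was Perp (log2 change -0.11), named after its values were seen. Plk2 and Psrc1, the nearest profiles to Cdkn1a, are both in this list and both had a log2 change of 1.22. In the list of p53 and its regulators only Mdm2, the ubiquitin ligase gene that p53 itself induces, rose (log2 change 0.41, adjusted p = 0.0291), 1 of 10 tested. Trp53, the gene of p53, named after its values were seen, was at 66.1 and 67.5 FPKM under doxycycline, against 63.2 and 62.9 FPKM without it (log2 change 0.08, adjusted p = 0.369).

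The list of mitotic genes that DREAM is known to silence was higher as a whole. All 20 tested were higher in both pairs, with a median log2 change of 0.31, and being higher in both pairs held for 32.8% of all tested genes. Of the 20, 4 rose without the block and 18 with it, against 0.218% and 2.73% of all tested genes. Cyclin B1 (Ccnb1) was at 26.1 and 27.6 FPKM under doxycycline, against 17.6 and 17.8 FPKM without it, the largest change of the list at 0.57 ± 0.05 on the log2 scale (SE, adjusted p = 0.0291). Cyclin B2 (Ccnb2), polo-like kinase 1 (Plk1) and the kinetochore gene Cenpf rose by 0.53, 0.44 and 0.44. By contrast, 0 of 20 E2F-type genes of the G1/S transition passed limma's test with or without the block, and 2 without it and 3 with it had an unadjusted p under 0.05. Their median log2 change was -0.01, and their range ran from -0.11 for the licensing factor Cdt1 to 0.21 for the histone chaperone subunit Chaf1b. The difference between these 2 lists was not tested.

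**Figure D4:**
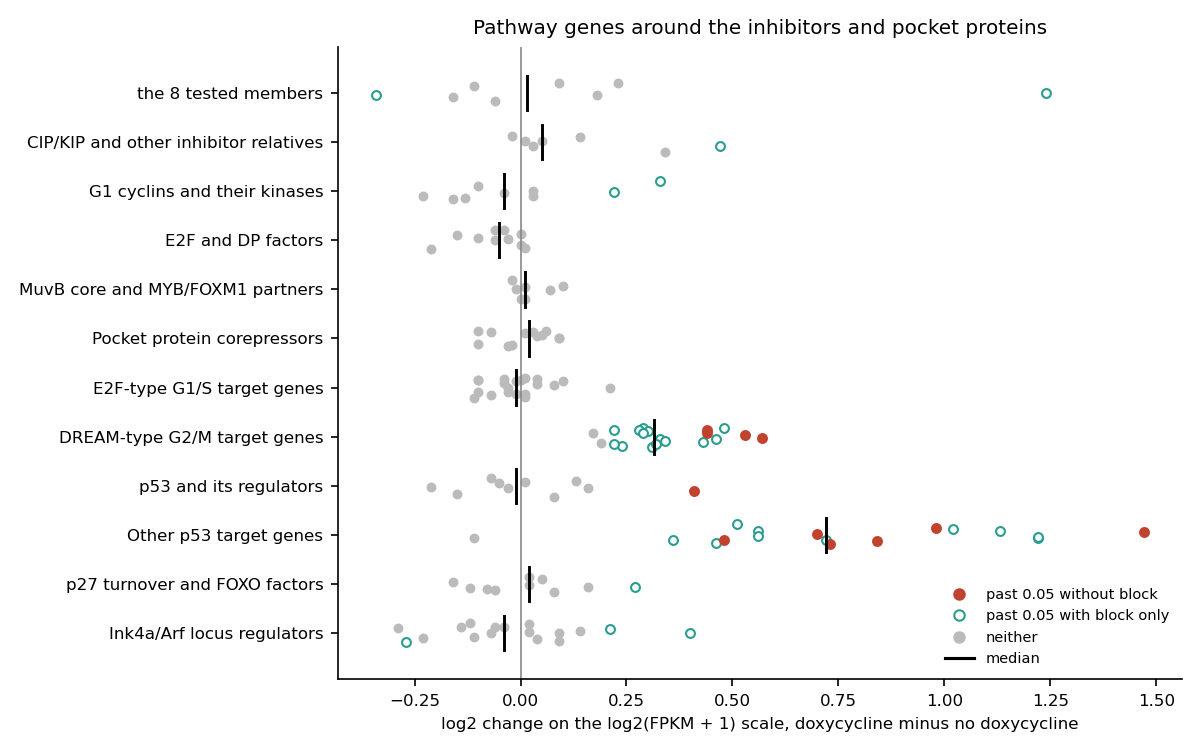
Log2 change with doxycycline (x axis, log2(FPKM + 1) scale) of each tested gene in the 11 pathway lists and among the 10 described genes (rows). Each gene is 1 point, and short black bars mark the medians. Filled red points passed the threshold without the block, and open points edged in green passed only with it. Filled grey points passed in neither fit. The list of other p53 targets has its median at 0.72 and that of mitotic DREAM-type genes at 0.31, while the other lists have medians between -0.05 and 0.05.

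Few of the kinases and factors between the inhibitors and the pocket proteins passed the test. The list of G1 cyclins and their kinases also holds the A-type cyclins. Of its 9 tested genes 0 passed without the block (5 unadjusted) and 2 rose with it. These were cyclin A2 (Ccna2, log2 change 0.33, adjusted p = 0.00795 with the block) and cyclin D1 (Ccnd1, 0.22, adjusted p = 0.0334 with the block). The kinases that INK4 proteins bind, named after their values were seen, differed widely in level. Cdk4 was at 207.1 and 206.6 FPKM under doxycycline, against 229.7 and 223.3 FPKM without it. Cdk6 was at 2.66 and 2.01 FPKM under doxycycline, against 2.70 and 1.87 FPKM without it. Neither passed the threshold with or without the block. None of 10 E2F and DP factors passed either (0 unadjusted, 1 with the block). The farthest from 0 were E2f8 (-0.21) and E2f2 (-0.15). In both pairs 7 of the 10 were lower, against 34.0% of all tested genes. A positive change was found for 3 after quantile normalization and for 0 after upper quartile scaling. Likewise 0 of 7 tested genes of the MuvB core of DREAM and its partners passed (0 unadjusted in either fit), with Foxm1 at 0.10 and Rbbp4 at 0.07. Of 12 pocket protein corepressors 0 passed (1 unadjusted, 3 with the block), with Hdac3 and Sin3a at -0.10.

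A few regulators of the inhibitors themselves passed under the block. Of 10 genes of p27 turnover and FOXO control, 0 passed without the block (3 unadjusted) and 1 rose with it, the ubiquitin-conjugating enzyme Cdc34 (log2 change 0.27, adjusted p = 0.0277 with the block). Of 17 tested regulators of the Ink4a/Arf locus, 0 passed without the block (6 unadjusted), while with it Id1 (0.40, adjusted p = 0.0228) and the Polycomb subunit Eed (0.21, adjusted p = 0.0362) rose and the histone demethylase Kdm6b (-0.27, adjusted p = 0.0292) fell. Of 7 relatives of the inhibitors, 0 passed without the block (2 unadjusted) and 1 rose with it, the antiproliferative gene Btg2 (0.47, adjusted p = 0.00734). Cdkn1c, the third CIP/KIP gene, which encodes p57 and was named after its values were seen, was at 77.8 and 78.7 FPKM under doxycycline, against 77.3 and 73.6 FPKM without it. That level was above that of Cdkn2a in both doxycycline libraries and below it in both untreated libraries, and above that of Cdkn1a in every library.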

How the data were processed

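Per the labels' protocols, TRIzol RNA of mouse spermatogonial stem cells went into Illumina libraries for a HiSeq4000. The submitters' processing notes name TopHat2 2.0.6, Cufflinks 2.0.2, Cuffdiff and mm9. Each library has its own table of FPKM per gene, deposited by the authors in Cufflinks layout, per the file headers. Annotation and strand setting: not given in the sources used here. FPKM was summed over the lines of a symbol (259 symbols have several). Loci and confidence bounds come from the table of doxycycline replicate 1, whose status was OK for 22735 of 23021 lines. The 2 Cdkn2d lines were matched between tables by the genes beside them. Summed FPKM was 313981 and 320243 in doxycycline libraries, 309153 and 314507 in untreated ones. Depth in reads is unknown. Steps among low values put it, in units of doxycycline replicate 1, at 1.21 in doxycycline replicate 2, 1.33 in untreated replicate 1 and 1.54 in untreated replicate 2.

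The filter was a mean of 1 FPKM or more over the 4 libraries. Log2(FPKM + 1) values entered limma 3.58.1 under R 4.3.3 with its variance trend on, two-sided, with Benjamini-Hochberg adjustment over all 11924 and a threshold of 0.05. That scale understates changes of low genes; ratios are of FPKM. The block adds the replicate number as a covariate. The design text names the same clones for each condition, so libraries of one number were taken as one clone, which the titles do not state, and across genes the deviations of such libraries correlated at 0.215. Since 2 clones stand behind all 4 libraries, p-values reflect the spread among those libraries only. Seeds were sought in GENCODE M21 3' UTRs and motifs in RefSeq promoters, which had none for Rb1.

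Members and lists were chosen with earlier results of these data known. Named are all members and the 4 nearest profiles of the 3 most variable members. From each list up to 4 genes past the threshold without the block, with the largest changes, are named. Where none passed without the block, those that passed with it are named, and otherwise the 2 with the largest changes. Alternatives were the block, each library left out, other pseudocounts, filters, scalings and moderation, and the highest line per symbol. Figures were drawn with matplotlib 3.10.9 in Python 3.11.15.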

Additional observations from a re-analysis of the deposited data

Results flagged for a closer look

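Rbl2, the p130 gene, was the only one of the 10 genes whose log2 change differed in sign between the pairs, at 0.02 in pair 1 and -0.02 in pair 2. The difference was not tested. Its FPKM was 0.660 and 0.743 with doxycycline and 0.641 and 0.772 without, and the deposited bounds of the first value, 0.502 and 0.817 FPKM, are wider than either difference.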

How the results depend on the processing

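With the replicate block 441 genes, 2 of the 10 described genes and 42 listed pathway genes passed, in place of 33, 0 and 11. Leaving out 1 library gave 2 to 60 genes, 0 to 1 of the described genes and 0 to 20 listed genes, on the assumption that the lone library left in a group varies like the other group. Without an expression filter 1 gene and 0 listed genes passed. With a filter of 5 FPKM 88 genes, 1 described gene (Cdkn1a) and 25 listed genes passed. Without an intensity trend 2 genes and 0 listed genes passed, and with quantile normalization 19 listed genes did. Alternatives chosen after seeing the data joined the block with no filter (16 genes, 1 described gene, Cdkn1a, and 6 listed genes; Gadd45g no longer passed, at an adjusted p of 0.165) and with a pseudocount of 0.1 (685, 2 and 44). The cause was not tested. Cdkn1b ran from -0.09 to 0.27 and turned to -0.01 without doxycycline replicate 1 and to -0.09 without untreated replicate 2. The other 7 tested members kept their direction under every setting run on them, with log2 changes of 0.97 to 1.51 for Cdkn1a, -0.47 to -0.20 for Gadd45g, 0.16 to 0.30 for Cdkn2b, 0.11 to 0.25 for Rb1, -0.24 to -0.09 for Cdkn2d, -0.17 to -0.05 for Rbl1 and -0.08 to -0.04 for Cdkn2a. The adjusted p of Cdkn1a ran from 9.73e-06 to 0.31. Apart from Cdkn1a and Gadd45g, the block changed the call of no described gene. The fits had few residual degrees of freedom (2, and 1 under the block). Cdkn2c and Rbl2, under 1 FPKM, had a value without a filter only.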
